A study of Mus musculus with 9 samples.

Results

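Expression of 8 complement genes was followed in mouse hippocampus: C1qa, C1qb and C1qc, C3 and C4b, the receptor gene C3ar1, and the inhibitor genes Serping1 and Cd59a. They were chosen by name as components, receptor and regulators of the complement system, among 55471 genes in the count table, 33175 of which had a count. All 8 were found and all 8 passed the filter on low counts, which left 17396 genes for testing. Female mice aged 9 months gave 9 libraries, 3 in each of 3 groups. WT vehicle mice were C57BL/6J and received solvent by mouth 4 times a week. 3xTg vehicle mice, a transgenic model of Alzheimer's disease with mutant APP, tau and PS1, received the same solvent. 3xTg LP-10d mice carried the same kind of genotype and received 10 mg/kg of the compound LP-10d by mouth 4 times a week for 1 month. The genotype labels of the 3xTg libraries give APPSwe and tau P301L throughout, and a PS1 allele that differs in each of the 6 libraries (M146V, M147V, M148V, M149V, M150V and M151V). Since its number rises by 1 from sample to sample, the labels may not give the true allele. The labels do not give the strain background of the 3xTg mice, so transgenes and strain cannot be told apart. The labels also do not say that libraries come from separate mice, so every p-value measures the spread between these libraries, which may be technical.

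Complement is a chain of plasma proteins that marks targets for uptake or lysis. In the classical pathway the C1q molecule, built of A, B and C chains, binds a target and leads to cleavage of C4 and C3, whose fragments coat the target or bind receptors such as C3aR1. Serping1 encodes the C1 inhibitor, and Cd59a a membrane protein that blocks the final pore. In the brain C1q is made mainly by microglia and C4 by astrocytes and other glia, and C1q and C3 are known for their part in the removal of synapses, also in mouse models of Alzheimer's disease. In bulk tissue, fewer cells of a type and less RNA per cell cannot be told apart.

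The C1q genes lie side by side on the minus strand of chromosome 4 (build mm10): C1qb at 136880129 to 136886187 (ENSMUSG00000036905), C1qc at 136889804 to 136893065 (ENSMUSG00000036896) and C1qa at 136895917 to 136898803 (ENSMUSG00000036887). The cluster spans 18675 bases, with 3616 bases between C1qb and C1qc and 2851 between C1qc and C1qa. RefSeq's promoter table (GRCm38.p6, the mm10 assembly) held 5 of the 8 members: C1qb, C1qc, C3, C3ar1 and Cd59a. C1qb and C1qc moved together over the 9 libraries (r = 0.864, and 0.717 without WT vehicle replicate 3). C3ar1, also a gene of microglia, had r = -0.159 with the microglial markers, but its 29 to 47 counts per library limit what that r can show. The sequences upstream of C1qb, C1qc and C3ar1 are shown for these relations. They are written 5′ to 3′ on the minus strand, as the part of the 250 bases before the RefSeq start that lies outside the deposited gene (chr4:136886201-136886450 for C1qb, chr4:136893066-136893164 for C1qc, chr6:122856162-122856407 for C3ar1). Capitals mark a match to the motif GAGGAAGT, read on either strand, of PU.1, a transcription factor of microglia and other myeloid cells.
C1qb: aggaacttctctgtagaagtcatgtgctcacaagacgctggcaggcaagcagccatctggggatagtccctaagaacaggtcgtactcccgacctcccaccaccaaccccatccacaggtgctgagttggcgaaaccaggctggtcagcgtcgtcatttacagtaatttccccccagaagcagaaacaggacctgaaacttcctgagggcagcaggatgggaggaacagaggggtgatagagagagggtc
C1qc: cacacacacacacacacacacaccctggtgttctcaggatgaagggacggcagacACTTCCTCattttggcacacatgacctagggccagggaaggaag
C3ar1: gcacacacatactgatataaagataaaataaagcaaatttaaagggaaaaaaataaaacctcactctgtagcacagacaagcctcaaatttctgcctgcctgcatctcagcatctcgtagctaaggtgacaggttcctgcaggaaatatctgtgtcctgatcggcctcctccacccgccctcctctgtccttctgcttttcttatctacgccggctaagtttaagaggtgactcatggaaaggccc
In the 250 bases of each of the 5 promoters, the motifs of PU.1, STAT (TTCNNNGAA), the interferon-stimulated element (GAAANNGAA), NF-kB (GGGANTTTC) and C/EBP (TTGCNNAA) were searched on both strands. C1qc held the 1 PU.1 match, beginning 195 bases before its start, and 2.44% of 32851 promoter windows of this length hold that motif. C3 held a C/EBP match 45 bases before its start (9.56% of windows), and Cd59a a match to the interferon-stimulated element 187 bases before its start (7.13% of windows). The STAT motif, in 7.02% of windows, and the NF-kB motif, in 0.941%, had no match in the 5. A match describes the letters only, and binding was not measured.

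Total counts ran from 16582086 to 19170969 per library. The hippocampal neuron markers were all detected, and their summed level was 590 to 1196 CPM (counts scaled to library size, here with TMM factors). It was lowest in 3xTg vehicle replicate 2, where striatal and thalamic markers summed to 969 CPM, against 129 to 344 CPM in the other libraries; 344 was in WT vehicle replicate 3. That wild-type library also had 5.04% of its counts in mitochondrial genes, against 2.28% to 2.86% elsewhere. Choroid plexus markers ranged from 45.3 to 4506 CPM, widely within every group. In 3xTg vehicle replicate 1, a list of 20 hepatocyte genes, chosen after values were seen, summed to 401 CPM, against 1.98 to 2.55 CPM in the other 8 libraries.

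Measured per length, the C1q chains were the most abundant of the 8 genes. Mean FPKM, the authors' measure scaled to gene length and depth, was 39.4 for C1qa, 38.4 for C1qb and 27.7 for C1qc over the 9 libraries. C4b followed at 18.3 FPKM, then Serping1 at 3.34, Cd59a at 3.11, C3 at 1.56 and C3ar1 at 0.472 FPKM. C1qa and C1qb overlapped throughout their ranges (28.3 to 44.9 and 28.6 to 42.8 FPKM), as did Serping1 and Cd59a (2.10 to 6.30 and 1.56 to 4.91 FPKM). C3 stood at 0.793 FPKM without 3xTg vehicle replicate 1, with a range of 0.224 to 1.28 FPKM that overlapped that of C3ar1 (0.363 to 0.626 FPKM). Their spread also differed: the coefficient of variation over the 9 libraries was 10.97% to 13.4% for the C1q genes, 16.7% for C3ar1, 20.96% for C4b, 35.9% for Cd59a, 41.8% for Serping1 and 148% for C3 (49.4% without 3xTg vehicle replicate 1). The C3ar1 value rests on 29 to 47 counts per library, against at least 564 for each C1q gene, so counting noise weighs more in it.

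**Figure D1:**
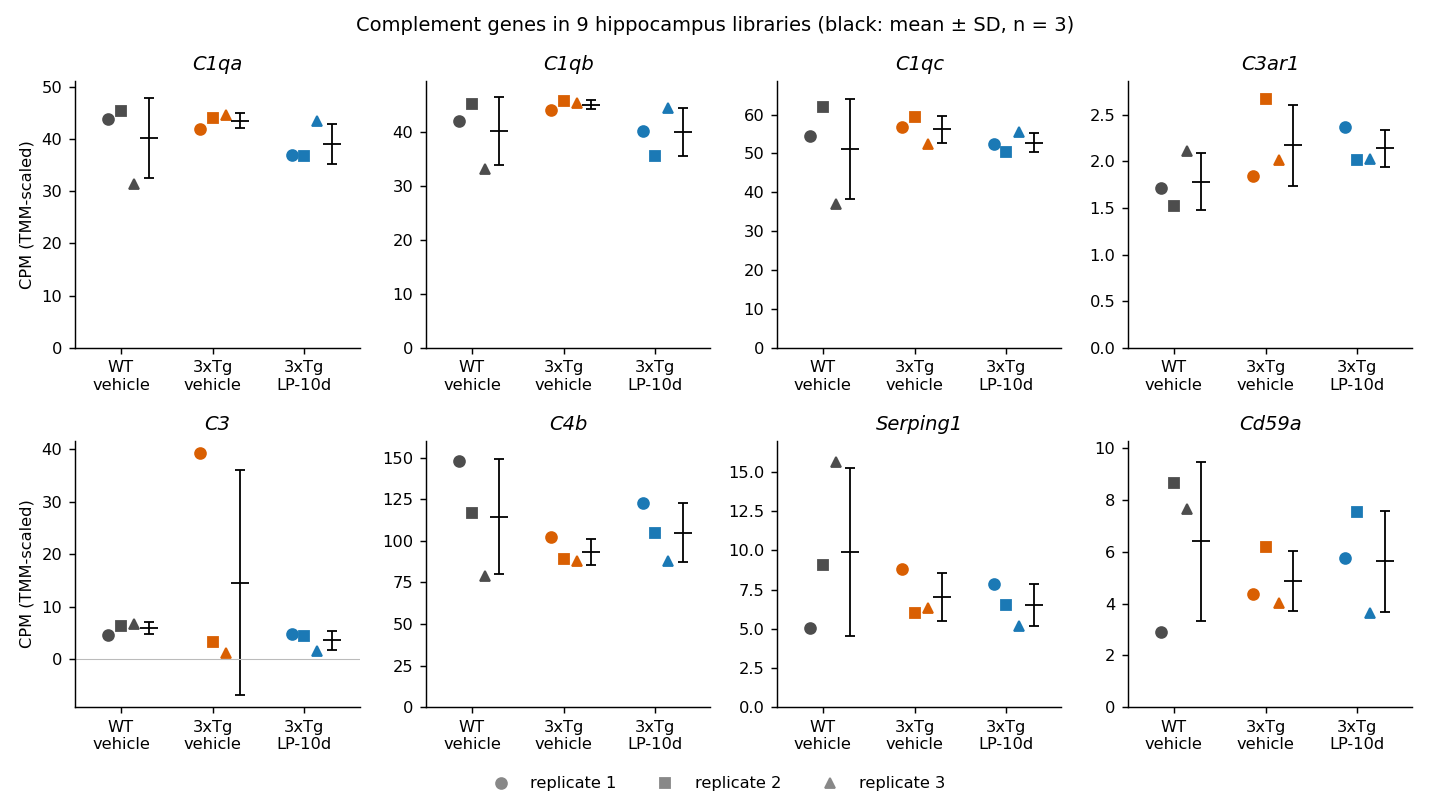
Level of each complement gene in CPM (vertical axes, linear, TMM-scaled) by group (horizontal axes): coloured points are single libraries, their shape is the replicate number, and the black bar beside them is the mean ± SD (n = 3). Groups overlap in all 8 panels, and C3 in 3xTg vehicle replicate 1 (39.4 CPM) stands above the other 8 libraries, which is why the lower end of that SD bar falls under 0.

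The C1q genes stood at nearly the same level in the 3 groups. C1qa, the A chain, was at 43.9, 45.4 and 31.4 CPM in wild-type replicates 1 to 3, at 42.0, 44.2 and 44.6 CPM in the 3xTg replicates on vehicle and at 37.0, 36.8 and 43.5 CPM in those on LP-10d. C1qb, the B chain, was at 42.1, 45.2 and 33.2 CPM in the wild-type libraries, at 44.0, 45.7 and 45.4 CPM in the 3xTg libraries on vehicle and at 40.2, 35.5 and 44.3 CPM in those on LP-10d. C1qc, the C chain, was at 54.4, 62.0 and 36.9 CPM in the wild-type libraries, at 56.9, 59.4 and 52.5 CPM in the 3xTg libraries on vehicle and at 52.5, 50.4 and 55.5 CPM in those on LP-10d. The lowest library for each chain was WT vehicle replicate 3 and the 3xTg vehicle libraries lay close together, while the wild-type range covered or nearly covered both 3xTg groups. The group means of C1qa were 40.2 ± 7.71, 43.6 ± 1.42 and 39.1 ± 3.80 CPM for WT vehicle, 3xTg vehicle and 3xTg LP-10d (SD, n = 3 each).

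In 3xTg vehicle against WT vehicle, which asks how the transgenic hippocampus differs from the wild type, edgeR gave log2 fold changes of 0.12 ± 0.14 for C1qa, 0.17 ± 0.12 for C1qb and 0.14 ± 0.16 for C1qc (SE). The adjusted p was 0.706, 0.544 and 0.701 with edgeR's quasi-likelihood test and Benjamini-Hochberg adjustment over all genes tested. The 95% interval of the ratio was 0.879 to 1.34 for C1qa, 0.928 to 1.35 for C1qb and 0.862 to 1.40 for C1qc, so a change of either sign within those bounds remains possible. Without WT vehicle replicate 3 the log2 fold change was -0.04 for C1qa, 0.04 for C1qb and -0.06 for C1qc. In 3xTg LP-10d against 3xTg vehicle, which asks what the compound does in the transgenic mice, the values were -0.16 ± 0.14, -0.17 ± 0.12 and -0.09 ± 0.16 (SE; edgeR adjusted p = 1.00 for each). The treated libraries held 0.897 times the vehicle level of C1qa, with a 95% interval of 0.727 to 1.11. 3xTg LP-10d against WT vehicle gave -0.04, -0.01 and 0.05; leaving out 1 library turned the sign of all 3. Without scaling factors C1qb was at 0.03, where the median of all genes was at 0.04. These comparisons share libraries and are not independent of each other.

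The proportions of the chains varied little. Per length, C1qb stood at 0.917 to 1.04 times C1qa and C1qc at 0.634 to 0.766 times C1qa over the 9 libraries. C1qc per C1qa was 0.679 ± 0.0516 in the wild type, 0.696 ± 0.0540 in 3xTg mice on vehicle and 0.730 ± 0.0395 in those on LP-10d (SD, n = 3 each), and the ranges of the 3 groups overlapped. No window of 50 bases is shared exactly between the transcripts of the chains.

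The C1q genes followed each other and the microglial markers from library to library. In 14 relations computed over the 9 libraries on log2 CPM, C1qa and C1qb had Pearson r = 0.943 (exact permutation p = 7.61e-04, adjusted p = 0.00330) and Spearman rho = 0.883 (adjusted p = 0.0215, exact permutation). C1qa and C1qc had r = 0.888 (exact permutation, adjusted p = 0.00568; rho = 0.767, adjusted p = 0.0595), and C1qb and C1qc r = 0.864 (exact permutation, adjusted p = 0.00330; rho = 0.783, adjusted p = 0.0595). Without the 2 libraries farthest from the median, WT vehicle replicate 3 and 3xTg LP-10d replicate 2, r was 0.839, 0.519 and 0.575 for the 3 pairs. Without WT vehicle replicate 3 alone, C1qa and C1qb kept r = 0.879 (exact permutation, adjusted p = 0.0371), while C1qa with C1qc fell to 0.685 and C1qb with C1qc to 0.717 (exact permutation, adjusted p = 0.113 and 0.0778): both relations with C1qc rest on that library. With values centred on group means, the 3 r were 0.941, 0.906 and 0.883.

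Of the microglial markers, all 15 were detected (Csf1r, the growth factor receptor that microglia need, ran from 106 to 140 CPM). Their mean log2 CPM had r = 0.950 with C1qa, 0.946 with C1qb and 0.944 with C1qc (exact permutation, adjusted p = 0.00330 each), and rho = 0.750, 0.733 and 0.850 (adjusted p = 0.0595, 0.0623 and 0.0283). Without the 2 libraries farthest from the median of each gene, r was 0.824, 0.676 and 0.842. These were WT vehicle replicate 3 and 3xTg LP-10d replicate 2 for C1qa and C1qb, and WT vehicle replicates 2 and 3 for C1qc. Without WT vehicle replicate 3 alone r was 0.872, 0.917 and 0.773 (exact permutation, adjusted p = 0.0371, 0.0371 and 0.0532). The points of each relation share a library and its scaling factor. Summed C1q counts came to 28.5% ± 3.80 of the summed microglial marker CPM in the wild type, 30.5% ± 0.900 in 3xTg mice on vehicle and 29.4% ± 1.32 in those on LP-10d (SD, n = 3 each). The lowest share, 24.7%, was in WT vehicle replicate 3 and the highest, 32.3%, in WT vehicle replicate 2, so both ends of the range lay in the wild type. Ctss, a lysosomal protease of microglia, was the gene closest to C1qc of the 15457 with a mean CPM of at least 1 (r = 0.977, rho = 0.967, over 9 libraries). Closest to C1qa were Ccng2, Tef and Kdm4b (r = 0.968, 0.962 and 0.958), and closest to C1qb were Kdm4b, Emid1 and Ccng2 (r = 0.976, 0.961 and 0.947); these are descriptions with no test.

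**Figure D2:**
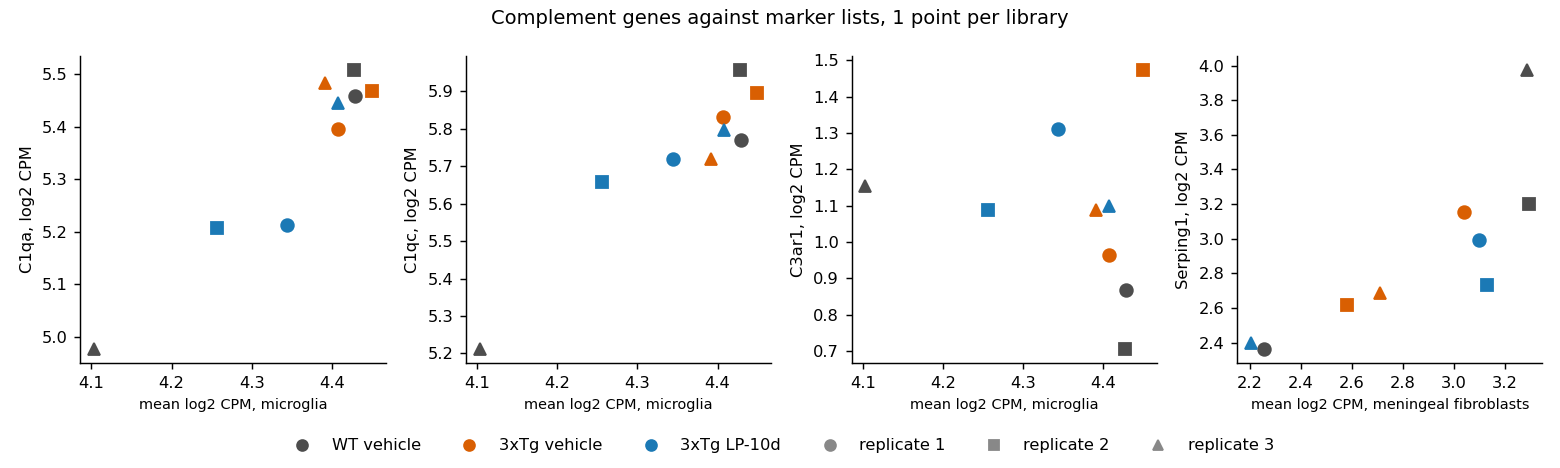
Log2 CPM of C1qa, C1qc, C3ar1 and Serping1 (vertical axes) against the mean log2 CPM of a marker list (horizontal axes: microglia in the first 3 panels, meningeal fibroblasts in the last), 1 point per library, coloured by group and shaped by replicate number. C1qa and C1qc rise with the microglial markers (r = 0.950 and 0.944), with WT vehicle replicate 3 at the low end of both. C3ar1, with only 29 to 47 counts per library, has r = -0.159. Serping1 rises with the meningeal markers (r = 0.812).

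C3, the protein on which all complement pathways converge (ENSMUSG00000024164, chromosome 17, 57203970 to 57228136, minus strand), was high in 1 library. It was at 4.63, 6.39 and 6.62 CPM in the wild-type libraries, at 39.4, 3.29 and 1.14 CPM in the 3xTg libraries on vehicle and at 4.80, 4.45 and 1.48 CPM in those on LP-10d. The 39.4 CPM of 3xTg vehicle replicate 1 rest on 748 counts, against 21 to 122 counts in the other 8 libraries, and were 5.95 times the next highest level. The other 3xTg vehicle libraries lay below every wild-type library, and so did 2 treated libraries. The log2 fold change for 3xTg vehicle against WT vehicle was 1.32 ± 0.94 (SE; edgeR adjusted p = 0.529) with all libraries and -1.42 without 3xTg vehicle replicate 1. For 3xTg LP-10d against 3xTg vehicle it was -2.04 ± 1.00 (SE; edgeR adjusted p = 1.00) with all libraries and 0.70 without that library. The direction of both comparisons thus turned with 1 library. Limma-voom also gave a negative value for the first, -0.10.

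In the same library, genes that the liver makes stood far above the others. Alb, the serum albumin of hepatocytes, had 3325 counts there and 0 to 4 in the other 8 libraries, and Hpx, the haem-binding plasma protein, had 527 against 3 to 13. All 20 genes of the hepatocyte list were highest there, but the list was chosen after values were seen, so this count is a description only. Among 51 other complement genes measured, 13 were highest in this library. The share of all genes highest there was not counted, so 13 cannot be called many or few. Some of the 13 were so only slightly, such as Vtn at 1.03 times and C8g at 1.18 times the next highest library. Of the 13, 6 had more than 3 times the count of the next highest library, taken as at least 3 counts: Hc, C6, C8a, C8b, C9 and Cfi. C9, the pore-forming last component, had 27 counts there and 0 or 1 elsewhere; C6 had 11 counts and 0 in each of the other 8 libraries, where a count of 0 allows up to 3. C8a and C8b had 27 and 28 counts, against 0 to 4 elsewhere, and Cfi, the protease that cleaves C3b, had 26 against 0 to 2. Of the 8 members, C3 alone was highest in this library; C4b was at 102 CPM and Serping1 at 8.79 CPM there, inside the range of the others. The part of hepatocyte RNA in the C3 value was not tested.

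**Figure D3:**
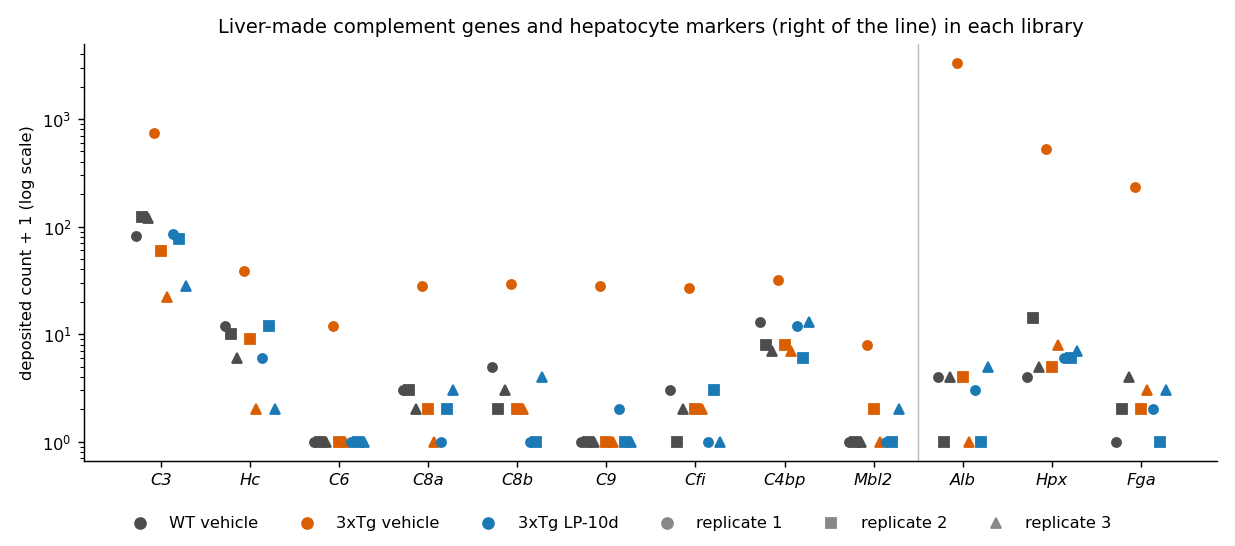
Deposited counts plus 1 (vertical axis, log scale) of C3, other complement genes made in the liver and, right of the line, hepatocyte genes, in each of 9 libraries; colour gives the group and shape the replicate number. The 3xTg vehicle replicate 1 point (orange circle) is the highest for every gene, with 748 counts for C3 and 3325 for Alb.

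Without that library, C3 moved with the choroid plexus markers. Over all 9 libraries their r was 0.554 (exact permutation p = 0.118, adjusted p = 0.207; rho = 0.700, adjusted p = 0.0757). Without 3xTg vehicle replicate 1 it was 0.809 (exact permutation, adjusted p = 0.0124). The lowest C3 levels, 1.14 CPM in 3xTg vehicle replicate 3 and 1.48 CPM in 3xTg LP-10d replicate 3, fell in the libraries with the lowest summed choroid plexus level, 53.9 and 45.3 CPM. WT vehicle replicate 1, with a similar sum of 65.8 CPM, had 4.63 CPM of C3, more than the 4.45 CPM of 3xTg LP-10d replicate 2 with a sum of 2713 CPM. That sum was 65.8 to 4506 CPM over the wild-type libraries, 53.9 to 960 CPM over the 3xTg libraries on vehicle and 45.3 to 2713 CPM over those on LP-10d; its part in the C3 values was not tested. C3 and C4b had r = 0.235 and C3 and C3ar1 r = -0.273 (exact permutation, adjusted p = 0.639 and 0.609). Osgin1, Aurka and Cbr2 were closest to C3 (r = 0.961, 0.927 and 0.902), with 1 library far from the rest.

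C4b, the main C4 gene of mouse brain (ENSMUSG00000073418, chromosome 17, 34728380 to 34743882, minus strand), varied most within the wild type. It was at 148, 117 and 78.9 CPM in the wild-type libraries, at 102, 89.4 and 88.0 CPM in the 3xTg libraries on vehicle and at 123, 105 and 87.7 CPM in those on LP-10d. The wild-type libraries held both the highest and the lowest value, and all 6 of the 3xTg libraries lay between them. The log2 fold change was -0.30 ± 0.20 for 3xTg vehicle against WT vehicle (SE; edgeR adjusted p = 0.510; 95% interval of the ratio 0.597 to 1.11). It was 0.17 ± 0.20 for 3xTg LP-10d against 3xTg vehicle (SE; edgeR adjusted p = 1.00; ratio 0.826 to 1.53). Without WT vehicle replicate 1 the first fell to -0.07, and without WT vehicle replicate 3 it was -0.51. Against the wild type, treated libraries stood at -0.13, and at 0.11 without WT vehicle replicate 1.

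Reads of C4b and C4a, its neighbouring near copy, may be mixed, since 35.2% of the 50-base windows of the C4b transcript (16.5% of the 100-base windows) occur exactly in C4a transcripts. C4a counts came to 3.26% to 6.67% of C4b counts, and C4a was at 4.01 to 6.50 CPM. C4b and the astrocyte markers, whose summed level was 4704 to 5359 CPM, had r = 0.411 (exact permutation, adjusted p = 0.422) and rho = 0.217. This r depended on single libraries. It was 0.755 without WT vehicle replicate 3 (exact permutation, adjusted p = 0.0694), 0.070 without WT vehicle replicate 1 and 0.168 on values centred on group means. The genes closest to C4b were Fbxw11, Aldh3b1 and Tprkb (r = 0.957, 0.931 and 0.924).

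C3ar1, the receptor for the C3a fragment (ENSMUSG00000040552, chromosome 6, 122847138 to 122856161, minus strand), was the scarcest member, with 29 to 47 counts per library. It was at 1.71, 1.52 and 2.11 CPM in the wild-type libraries, at 1.84, 2.67 and 2.01 CPM in the 3xTg libraries on vehicle and at 2.37, 2.02 and 2.03 CPM in those on LP-10d. The highest value was in 3xTg vehicle replicate 2, and the groups overlapped. The log2 fold change was 0.28 ± 0.22 for 3xTg vehicle against WT vehicle (SE; edgeR adjusted p = 0.562; 95% interval of the ratio 0.868 to 1.71). It was -0.02 ± 0.21 for 3xTg LP-10d against 3xTg vehicle (SE; edgeR adjusted p = 1.00), with a value of 0.15 without 3xTg vehicle replicate 2. C3ar1 had r = -0.159 (exact permutation, adjusted p = 0.703) and rho = -0.217 with the microglial markers. The low counts of C3ar1 limit what this r can show, and its difference from the correlations of the C1q genes was not tested. The genes closest to C3ar1 were Srrm4os, AI504432 and Gabra3, a GABA-A receptor subunit (r = 0.976, 0.976 and 0.934).

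Serping1, the C1 inhibitor (ENSMUSG00000023224, chromosome 2, 84765387 to 84775444, minus strand), spread widely in the wild type. It was at 5.03, 9.07 and 15.6 CPM in the wild-type libraries, at 8.79, 6.02 and 6.32 CPM in the 3xTg libraries on vehicle and at 7.84, 6.52 and 5.16 CPM in those on LP-10d. WT vehicle held both the lowest and the highest library, and the highest was replicate 3. The log2 fold change was -0.49 ± 0.35 for 3xTg vehicle (SE; edgeR adjusted p = 0.526) and -0.61 for 3xTg LP-10d, each against WT vehicle. All 3xTg libraries together stood at -0.55 ± 0.30 (SE; edgeR unadjusted p = 0.0927, adjusted p = 0.395; over the alternatives the adjusted p had a minimum of 0.155), with a 95% interval of the ratio of 0.433 to 1.08. Without WT vehicle replicate 3 these values shrank to -0.01, -0.12 and -0.07. For 3xTg LP-10d against 3xTg vehicle the log2 fold change was -0.12, and 0.08 without 3xTg vehicle replicate 1.

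Serping1 followed the markers of meningeal fibroblasts, cells of the brain's coverings (r = 0.812, exact permutation p = 0.00485, adjusted p = 0.00970; rho = 0.900, adjusted p = 0.0215). The relation remained without the 2 libraries farthest from the median, here WT vehicle replicates 2 and 3 (r = 0.872). It also remained without WT vehicle replicate 3 alone (r = 0.904, exact permutation, adjusted p = 0.0371) and within groups (r = 0.832 on centred values). The summed level of the 10 meningeal markers, all detected, was 79.6 to 133 CPM over the wild-type libraries, 92.6 to 116 CPM over the 3xTg libraries on vehicle and 68.9 to 139 CPM over those on LP-10d. Their part in the Serping1 differences was not tested. Serping1 was not set against the choroid plexus markers, which were high and low in some of the same libraries. The mean log2 CPM of the meningeal markers was highest in WT vehicle replicates 2 and 3 (3.29 in each). It was lowest in WT vehicle replicate 1 (2.26) and 3xTg LP-10d replicate 3 (2.21). In this order the choroid plexus mean was 5.79, 5.53, 1.07 and 0.47. Whether Serping1 followed one list apart from the other was not tested. The genes closest to Serping1 were Frmd4b, Sema6d and Ctsa (r = 0.969, 0.968 and 0.966). C4b and Serping1 had r = -0.346 (exact permutation, adjusted p = 0.514), and r = 0.785 without WT vehicle replicates 1 and 3, so its sign rests on those libraries.

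Cd59a, the inhibitor of the membrane pore (ENSMUSG00000032679, chromosome 2, 104095801 to 104115354, plus strand), was lowest in a wild-type library. It was at 2.91, 8.65 and 7.68 CPM in the wild-type libraries, at 4.37, 6.19 and 4.03 CPM in the 3xTg libraries on vehicle and at 5.76, 7.53 and 3.62 CPM in those on LP-10d. The wild type again held both ends of the range. The log2 fold change was -0.41 ± 0.38 for 3xTg vehicle against WT vehicle (SE; edgeR adjusted p = 0.629; 95% interval of the ratio 0.420 to 1.35). It was 0.21 ± 0.39 for 3xTg LP-10d against 3xTg vehicle (SE; edgeR adjusted p = 1.00; ratio 0.638 to 2.10), and -0.05 without 3xTg LP-10d replicate 2. Cd59a and the mature oligodendrocyte markers had r = 0.147 (exact permutation, adjusted p = 0.703). Cd59a was highest in WT vehicle replicates 2 and 3 and 3xTg LP-10d replicate 2, where choroid plexus markers summed highest (4506, 2466 and 2713 CPM). It was lowest in WT vehicle replicate 1, 3xTg LP-10d replicate 3 and 3xTg vehicle replicate 3, where they summed lowest (65.8, 45.3 and 53.9 CPM). In 3xTg vehicle replicate 2, Cd59a was at 6.19 CPM and that sum at 139 CPM. This relation was not tested. The genes closest to Cd59a were Kat2b, Gm26684 and Epn3 (r = 0.980, 0.974 and 0.971). Cd59b, a near copy that shares 3.98% of the 50-base windows of the Cd59a transcript, was at 0.274 to 0.965 CPM.

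Over the 8 genes, edgeR called 0 in 3xTg vehicle against WT vehicle, where 1 of 17396 genes (0.00575%) passed an adjusted p of 0.05. It also called 0 in 3xTg LP-10d against 3xTg vehicle, in 3xTg LP-10d against WT vehicle and in all 3xTg libraries against WT vehicle, and in each of these 0% of all genes passed. DESeq2 also called 0 of the 8 in all 4 comparisons, where it called 351, 1, 46 and 319 of all genes in the same order. At an unadjusted p under 0.05 edgeR counted 0 of 8 in each, where all genes gave 14.1%, 2.9%, 8.75% and 14.8% in the same order. Groups that did not overlap were found for 0 of 8 members in each comparison, and for 17.4%, 11.6%, 14.4% and 6.93% of all genes. In 3xTg vehicle against WT vehicle 5 members had a log2 fold change above 0 (50.2% of all genes did) and 3 below (49.8%); their median was 0.13, against 7e-04 over all genes. In 3xTg LP-10d against 3xTg vehicle 2 were above 0 (49.9% of all genes) and 6 below (50.1%), with a median of -0.10, against -3e-04. In 3xTg LP-10d against WT vehicle 2 were above 0 (49.5% of all genes) and 6 below (50.5%), and over all 3xTg libraries 5 were above and 3 below (50% of all genes each). These splits are not stable: leaving out 1 library turned the sign of 3 members in the first comparison (C1qa, C1qc and C3), 4 in the second (C3, C3ar1, Serping1 and Cd59a), 5 in the third (the C1q genes, C4b and Cd59a) and 5 in the fourth (the C1q genes, C3 and C4b).

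**Figure D4:**
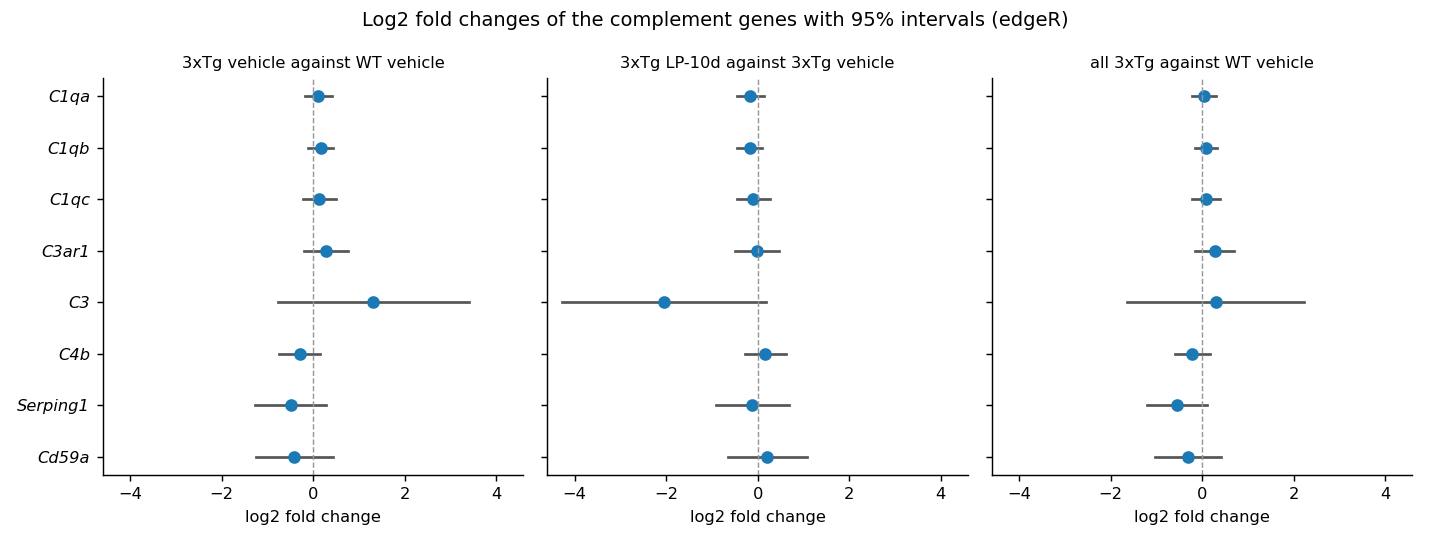
Log2 fold change (horizontal axes) of each complement gene in 3 comparisons, with points for edgeR's estimate from all 9 libraries and lines for its 95% interval. All intervals include 0; those of the C1q genes are narrow and that of C3 is the widest, from -4.27 to 0.18 for 3xTg LP-10d against 3xTg vehicle.

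Of a list of 52 other complement genes, 51 were found in the file and 35 were tested. With edgeR 0 of 35 passed the adjusted threshold in any comparison, and 5, 0, 2 and 5 had an unadjusted p under 0.05 in the order above, where all genes gave 14.1%, 2.9%, 8.75% and 14.8%. Groups did not overlap for 2, 4, 2 and 1 of the 35, where all genes gave 17.4%, 11.6%, 14.4% and 6.93%. In 3xTg vehicle against WT vehicle 15 were higher and 20 lower, with a median log2 fold change of -0.05, and in 3xTg LP-10d against 3xTg vehicle 12 were higher and 23 lower, with a median of -0.08. By role, the 3 tested terminal components (C7, C8g and Hc) had higher estimates in 3xTg vehicle than in WT vehicle, although Hc reached 38 counts only in the library with hepatocyte genes. C7 was at 0.501 to 0.685 CPM in the wild type and, without overlap, at 0.851 to 1.52 CPM in 3xTg mice on vehicle (9.38% of all genes did so in that direction; log2 fold change 0.87 ± 0.35, SE; edgeR adjusted p = 0.319). Of 6 tested genes of the classical pathway 5 were lower, of 6 receptors 4 were lower, and of 8 regulators 5 were lower in that comparison, where 49.8% of all genes were lower. Of 3 lectin pathway genes 2 were lower, of 8 neuronal regulators 4 were lower, and the 1 alternative pathway gene was higher. None of them passed.

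Cr1l had the smallest p of the list in each comparison with the wild type. It encodes the rodent regulator Crry, which limits C3 deposition, and was at 18.6, 15.7 and 19.2 CPM in the wild-type libraries, at 13.5, 15.4 and 14.3 CPM in the 3xTg libraries on vehicle and at 13.7, 15.1 and 15.1 CPM in those on LP-10d. All 6 of the 3xTg libraries lay below the lowest wild-type library, a separation that 3.1% of all genes showed in that direction (7.99% for 3xTg vehicle and 6.89% for 3xTg LP-10d alone). The closest values, 15.7 and 15.4 CPM, were nearly equal. The log2 fold change over all 3xTg libraries was -0.30 ± 0.10 (SE; edgeR unadjusted p = 0.0121, adjusted p = 0.254). Clu, the secreted chaperone clusterin that inhibits pore assembly, was at 1036, 1215 and 1507 CPM in the wild-type libraries, 1031, 903 and 1041 CPM in the 3xTg libraries on vehicle and 1139, 1126 and 1064 CPM in those on LP-10d. Its log2 fold change was -0.34 ± 0.13 in 3xTg vehicle against WT vehicle and 0.16 ± 0.13 in 3xTg LP-10d against 3xTg vehicle (SE; edgeR adjusted p = 0.308 and 1.00). Every treated library was above every 3xTg vehicle library, which held for 5.82% of all genes in that direction.

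Cd55, a membrane regulator that speeds the decay of C3 convertases, had a log2 fold change of -0.87 ± 0.36 in 3xTg vehicle against WT vehicle (SE; edgeR adjusted p = 0.328). It ranged from 3.03 to 7.23 CPM in the wild type and from 2.23 to 3.53 CPM in 3xTg mice on vehicle, and it was highest in WT vehicle replicate 3. Sez6l and Susd4, proteins of neurons with complement-control domains, stood at -0.37 and -0.19 (edgeR adjusted p = 0.304 and 0.398) and were also highest in that library, at 613 and 219 CPM. In 3xTg LP-10d against 3xTg vehicle the remaining genes with the smallest p were C4a at -0.26, Srpx2 at -0.38, Cfp (properdin, which stabilises the alternative convertase) at -0.15 and C1s1, a C1 protease gene, at -0.48, each with an edgeR adjusted p of 1.00. Srpx2, Cfp and Csmd1 were lower in every treated library than in every vehicle library, which held for 5.81% of all genes in that direction. With Clu, these made 4 of 35 tested genes of the list without overlap, against 11.6% of all genes.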

How the data were processed

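RNA from hippocampus was sequenced in 9 libraries; the RNA came from a TRIzol and RNeasy extraction and went into MGIEasy libraries, per the labels' protocols. The authors deposited raw counts per gene and FPKM values, on mm10 per the submitters' processing notes. How reads were aligned and counted, and whether by strand, is not given in the sources used here. Therefore overlapping genes and near copies cannot be told apart. The 8 genes were matched by symbol, and positions were as in GENCODE M21.

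Counts were tested with edgeR 4.0.16 (R 4.3.3): filterByExpr, TMM, 1 fit of all 9 libraries with group means, quasi-likelihood test, and Benjamini-Hochberg adjustment over 17396 genes with a threshold of 0.05. The common biological coefficient of variation was 0.157. Log2 CPM used a prior count of 2, and correlations were tested over all 362880 pairings, two-sided, with adjustment over 14 relations. No 2 libraries of a group agreed within sampling noise (chi-square test, summed count of at least 20 per gene). Alternatives were RLE or no scaling, no filter, DESeq2 1.42.0, limma-voom (limma 3.58.1), legacy edgeR, only the groups compared, the replicate number as a block, each library left out in turn, and leaving out WT vehicle replicate 3 with 3xTg vehicle replicate 2. After seeing the data, a fit that also leaves out 3xTg vehicle replicate 1, and the hepatocyte list, were added. The methods were tested on simulated data.

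The 8 genes and the lists were chosen with earlier results of these data known. Other complement genes named are the 5 of smallest p per comparison with a mean CPM of at least 1, C4a and Cd59b always, and genes of a role that is counted; the 3 genes of highest r are named for each member.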

Additional observations from a re-analysis of the deposited data

How the results depend on the processing

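The count of members called, 0 in each comparison, was 0 under every alternative run (73 values). Of 584 log2 fold changes of single members, 539 kept their direction and 45 turned, none past the threshold. For 3xTg vehicle against WT vehicle, where 1 of all genes was called, the count was 3 without the filter, 351 with DESeq2 and 0 without the 3 libraries with markers of other tissue (3xTg vehicle replicates 1 and 2 and WT vehicle replicate 3). For the comparisons with 0 genes called, DESeq2 called 1 for 3xTg LP-10d against 3xTg vehicle, 46 for 3xTg LP-10d against WT vehicle and 319 for all 3xTg libraries, where no filter, leaving out both libraries with markers of other brain regions (3xTg vehicle replicate 2 with WT vehicle replicate 3) and leaving out those 3 gave 1 each. Leaving out single libraries gave 0 to 11 genes for 3xTg vehicle against WT vehicle (11 without WT vehicle replicate 2), 0 to 0 for 3xTg LP-10d against 3xTg vehicle, 0 to 2 for 3xTg LP-10d against WT vehicle and 0 to 4 for all 3xTg libraries (both highest without 3xTg LP-10d replicate 2).

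Log2 fold changes that turned are given here; the cause was not tested. C1qb in 3xTg LP-10d against WT vehicle was 0.0326 without scaling factors, which moved the median of all genes from -0.0027 to 0.0426, and 9.4e-04 with limma-voom. C3 was -0.10 in 3xTg vehicle against WT vehicle and -0.49 in all 3xTg libraries with limma-voom. Without both libraries with markers of other brain regions, 3xTg vehicle against WT vehicle gave -0.0497 for C1qa, -0.0964 for C1qc and 0.0877 for Serping1; 3xTg LP-10d against 3xTg vehicle 0.16 for C3ar1; 3xTg LP-10d against WT vehicle -0.14 for C1qc; and all 3xTg libraries -0.12 for C1qa, -0.0490 for C1qb and -0.12 for C1qc. Without the 3 libraries, 3xTg vehicle against WT vehicle gave -0.0047 for C1qa, -0.15 for C1qc and -2.27 for C3, and all 3xTg libraries -0.0985 for C1qa, -0.0371 for C1qb, -0.15 for C1qc and -1.45 for C3.

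Leaving out single libraries, 3xTg vehicle against WT vehicle ran from -0.0420 to 0.21 for C1qa, -0.0574 to 0.30 for C1qc and -1.42 to 1.86 for C3. 3xTg LP-10d against 3xTg vehicle ran from -2.59 to 0.70 for C3, -0.12 to 0.15 for C3ar1, -0.27 to 0.0840 for Serping1 and -0.0504 to 0.45 for Cd59a. 3xTg LP-10d against WT vehicle ran from -0.19 to 0.0548 for C1qa, -0.13 to 0.0875 for C1qb, -0.14 to 0.21 for C1qc, -0.33 to 0.11 for C4b and -0.53 to 0.0805 for Cd59a. All 3xTg libraries against WT vehicle ran from -0.12 to 0.13 for C1qa, -0.0443 to 0.17 for C1qb, -0.0999 to 0.25 for C1qc, -1.07 to 0.57 for C3 and -0.42 to 0.0165 for C4b. Of the correlations, C3ar1 with microglial markers was 6.5e-04 without scaling factors, C4b with Serping1 ran from -0.513 to 0.0900 and Cd59a with oligodendrocyte markers from -0.0549 to 0.383 when single libraries were left out.

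With the replicate number as a block, 1, 0, 0 and 0 genes and 0 members were called in the 4 comparisons, and C3 in all 3xTg libraries was -0.32. Whether the numbers pair the libraries cannot be told from 3 libraries per group. Of 9 same-number pairs, 4 had a correlation of deviations over 0.1 (range -0.178 to 0.375), and 2 of 9 libraries correlated best with their own number. Between 3xTg vehicle and 3xTg LP-10d the same-number pairs had 0.173, 0.104 and 0.375, and the other pairs -0.298 to 0.18. Depth limits C3ar1 most, with 29 to 47 counts per library, and C3 in its lowest library, with 21.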

Other observations

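The library with hepatocyte genes also held counts of Y-linked genes, although all mice are labelled female. Ddx3y had 2 counts, Eif2s3y 4 and Kdm5d 3 in 3xTg vehicle replicate 1, and each had 0 in the other 8 libraries, where a count of 0 allows up to 3 counts. Mup3, a urinary protein gene of the liver, had 262 counts there and 0 or 1 elsewhere, and the apolipoprotein gene Apoa2 had 269, against 2 to 7.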
